A study of Mus musculus with 2 samples.

Results

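Formyl peptide receptors and related receptors of neutrophils were examined in CD11b-positive primary mouse cells without interferon regulatory factor 8 (IRF8 KO) against wild type (wt) cells. CD11b is the integrin alpha M chain found on myeloid cells, and IRF8 is a transcription factor that directs their development. The genes were all those on the array table whose symbol starts with Fpr or Mrgpra, together with Cxcr2, whose older symbol is Il8rb. This gave 4 genes, Fpr1, Fpr2, Mrgpra2a and Cxcr2, of 7520 named genes and 9143 probes. RefSeq names 8 Fpr genes and pseudogenes, of which 2 were listed, and 8 Mrgpra genes and pseudogenes, of which 1 was listed. The other members of both families were not analysed here.

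Cells of both genotypes were hybridised together on 2 arrays, on which the wt sample was read in the Cy5 channel and the IRF8 KO sample in the Cy3 channel. The cells had received no treatment, and the age, sex and tissue of the animals, the nature of the IRF8 allele and the way CD11b-positive cells were selected are not given in the sources used here. The arrays are described as biological replicates. Without a dye swap, dye and genotype cannot be told apart for any single gene. Ratios are given on the log2 scale with IRF8 KO as the numerator, so that a positive value means a higher KO signal. Median raw signals were 1652 (wt) and 1755 (KO) on replicate 1 and 2448 and 2584 on replicate 2. Over the 5192 genes on both arrays the median log2 ratio was 0.03 on replicate 1 and -0.42 on replicate 2, so values of 0 on replicate 2 lay above most genes. With 2 arrays every estimate is imprecise.

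Formyl peptide receptors are G protein-coupled receptors that detect peptides starting with N-formylmethionine, which bacteria and mitochondria make. They signal through Gi proteins to chemotaxis, degranulation and the oxidative burst of phagocytes. Fpr1 responds to short formyl peptides, while Fpr2 also takes other ligands such as serum amyloid A and annexin A1. Mrgpra2a is a Mas-related receptor of mouse neutrophils that responds to antimicrobial defensin peptides. Cxcr2 is the receptor for chemokines such as Cxcl1 and Cxcl2, which draw neutrophils out of the bone marrow and into tissue.

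Fpr1 and Fpr2 are neighbours on chromosome 17. Their gene spans on mouse build 37 are 18013434 to 18020903 and 18024787 to 18030916, which leaves 3.9 kb between them. They lie on opposite strands with their starts facing this gap, so the sequences before their starts are shown beside each other. Mrgpra2a is shown because its probe matched 2 gene IDs. The RefSeq window before its start was identical at 250 of 250 bases to that of Mrgpra2b, its near copy on chromosome 7. The windows are the 250 bases before each RefSeq start on build GRCm38.p6, 5′ to 3′ along the gene, and capitals mark GGAA, the core letters bound by ETS factors such as PU.1, on either strand.
Fpr1, chr17:17883940-17884189, minus strand: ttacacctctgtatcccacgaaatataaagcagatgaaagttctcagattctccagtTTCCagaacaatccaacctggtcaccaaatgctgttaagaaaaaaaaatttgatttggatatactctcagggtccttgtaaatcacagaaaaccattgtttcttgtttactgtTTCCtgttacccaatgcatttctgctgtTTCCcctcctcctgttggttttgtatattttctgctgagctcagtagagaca
Fpr2, chr17:17887574-17887823, plus strand: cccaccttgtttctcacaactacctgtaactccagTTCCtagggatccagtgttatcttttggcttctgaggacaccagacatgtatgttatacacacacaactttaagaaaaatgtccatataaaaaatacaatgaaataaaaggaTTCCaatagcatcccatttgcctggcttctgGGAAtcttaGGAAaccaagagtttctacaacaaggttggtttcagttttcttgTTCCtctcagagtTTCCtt
Mrgpra2a, chr7:47452165-47452414, minus strand: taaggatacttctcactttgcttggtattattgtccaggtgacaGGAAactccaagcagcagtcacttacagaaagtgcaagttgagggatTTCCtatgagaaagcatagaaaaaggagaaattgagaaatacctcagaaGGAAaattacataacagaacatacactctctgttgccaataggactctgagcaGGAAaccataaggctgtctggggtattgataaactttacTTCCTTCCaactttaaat

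GGAA occurred 3 times in the Fpr1 window, 6 times in that of Fpr2, 6 times in that of Mrgpra2a and 5 times in that of Cxcr2. It was held by 93.4% of 32851 RefSeq windows of the same length, so its presence sets these genes apart from few others. The composite ETS and IRF element had 0 matches on either strand in the 4 windows and was held by 2.3% of all windows. The core of the interferon-stimulated response element also had 0 matches (3.0% of all windows), as had the longer PU.1 motif GAGGAAGT (2.4%). The C/EBP motif TTNNGCAA (9.6%) and its palindromic form TTGCGCAAT (16 of 32851 windows) had 0 matches in the 4 windows. These counts say only which letters are in these windows.

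Fpr1 was higher in IRF8 KO cells. Its probe (chromosome 17, 18014111 to 18014181, build 37) gave a raw signal of 619 in wt and 1991 in KO on replicate 1. On replicate 2 it gave 1105 in wt and 2794 in KO. Both KO signals lay above both wt signals. Set against the median signal of its channel, Fpr1 stood at 0.375 and 0.451 in wt and at 1.13 and 1.08 in KO on replicates 1 and 2. Its normalised log2 ratios were 1.66 and 0.95, or 3.16-fold and 1.93-fold. The mean was 1.30 ± 0.50 (SD, n = 2 arrays), a 2.47-fold rise, with an adjusted p of 0.0229 in limma over 5192 genes. In that test 6.22% of all genes were called, 2.81% higher and 3.41% lower in KO. Higher genes made up 45.2% of the calls, 66.9% with each array centred on its median and 57.9% with loess, which removes a trend with brightness. By mean ratio Fpr1 ranked 119 from the highest of the 5192 genes, and by the single arrays 135 and 148.

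The call for Fpr1 rested on a spread that limma shared over all genes, with a standard error of 0.40 for each gene, and it ended with an ordinary t statistic (adjusted p = 0.766). Fpr1 was not among the 112 genes (2.16%) that were at least 2-fold higher on both arrays in the deposited ratios. With each array centred on its median its ratios were 1.66 and 1.25, and with loess 1.67 and 1.24, past 2-fold on both arrays.

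**Figure D1:**
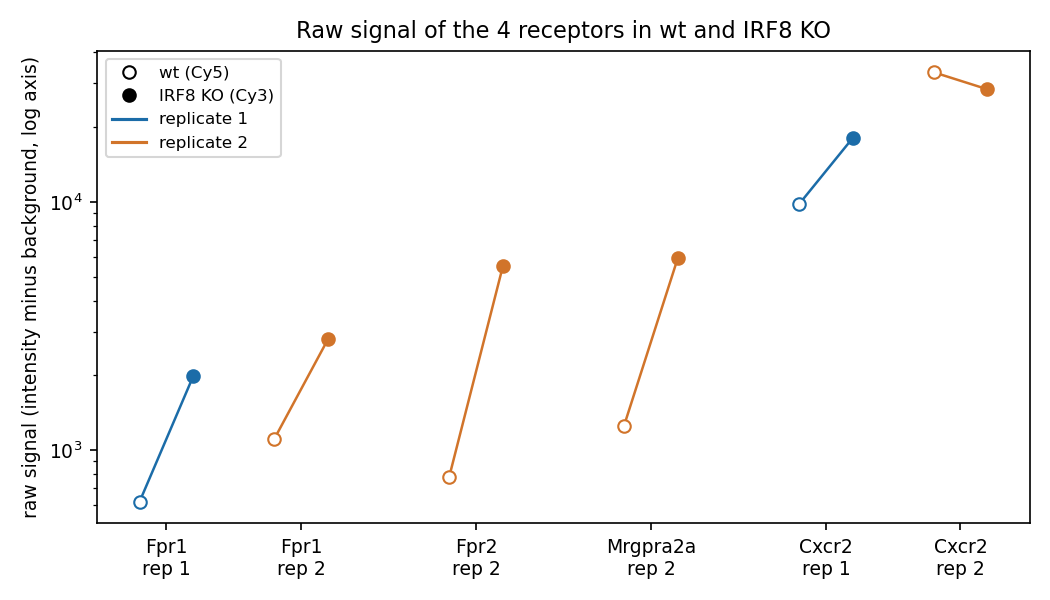
Raw signals (log axis) of Fpr1, Fpr2, Mrgpra2a and Cxcr2 in wt (open points) and IRF8 KO (filled points), with a line joining the channels of an array. Fpr1 was higher in KO on both arrays, Fpr2 and Mrgpra2a were higher on replicate 2, the only array that lists them, and Cxcr2 went from 9775 to 18090 on replicate 1 and from 33286 to 28413 on replicate 2.

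Fpr2 was listed on replicate 2 only and has no test. Its raw signal there was 776 in wt and 5510 in KO (probe at chromosome 17, 18030693 to 18030763, build 37). These were 0.317 and 2.13 times the median of their channels. The normalised log2 ratio was 2.44, or 5.41-fold, and 3 of the 8702 probes listed on replicate 2 had a higher one (rank 4). The ratio was 2.74 with the array centred on its median and 2.78 with loess. Fpr2 had the highest ratio of 69 probes on replicate 2 that the deposited annotation assigns G protein-coupled receptor activity, smell and pheromone receptors left out.

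Mrgpra2a was also listed on replicate 2 only. Its raw signal was 1252 in wt and 5941 in KO, or 0.511 and 2.30 times the channel medians. The log2 ratio was 1.85, or 3.62-fold, with rank 53 of 8702 probes. It was 2.16 after centring and 2.25 with loess. As the probe matched 2 gene IDs, the value cannot be given to Mrgpra2a alone, and its position on build 37 is not used here.

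Of the 8702 probes on replicate 2, 335 (3.85%) were at least 2-fold higher in KO, and of the 3024 probes listed only there 182 (6.02%) were. Fpr2 and Mrgpra2a were past 2-fold, Fpr1 at 1.93-fold was just under it, and Cxcr2 was below 0 on the log2 scale. That replicate 1 does not list Fpr2 and Mrgpra2a gives no level for them there. The deposited table left out spots that were dim in either channel, and the lowest wt signal listed on replicate 1 was 479. Over probes on both arrays the wt signal was a median of 2.00-fold higher on replicate 2 than on replicate 1. Probes listed on replicate 2 only had a median wt signal of 1226 there, against 3849 for probes on both arrays.

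**Figure D2:**
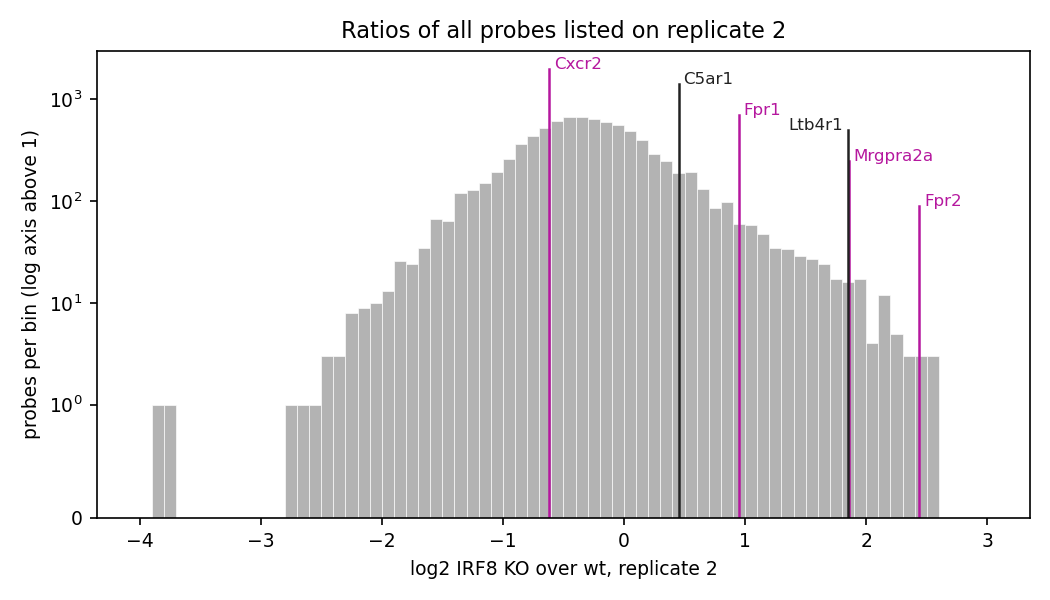
Number of probes (bars, log axis above 1) by log2 ratio of IRF8 KO over wt on replicate 2, with lines at Fpr1, Fpr2, Mrgpra2a and Cxcr2 and at the receptors C5ar1 and Ltb4r1. Fpr2 (2.44) lies at the upper end of the 8702 probes, Mrgpra2a (1.85) beside Ltb4r1 (1.85), and Cxcr2 (-0.62) below 0.

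Cxcr2 did not pass the test, and its arrays went opposite ways. Its raw signal (chromosome 1, 74206187 to 74206257, build 37) was 9775 in wt and 18090 in KO on replicate 1, against 33286 and 28413 on replicate 2. The KO signal was the higher on replicate 1 and the lower on replicate 2. The log2 ratios were 0.86 and -0.62, with a mean of 0.12 ± 1.05 (SD, n = 2 arrays; limma adjusted p = 0.934). Between the arrays the wt signal of Cxcr2 differed 3.41-fold and the KO signal 1.57-fold, where the median over probes on both arrays was 2.00-fold for wt and 1.90-fold for KO. For Fpr1 the same figures were 1.79-fold and 1.40-fold. On replicate 2 the Cxcr2 ratio was -0.32 after centring and -0.09 with loess, and on replicate 1 it was 0.86 and 0.78. The log2 ratio of Fpr1 lay above that of Cxcr2 by 0.80 on replicate 1 and 1.57 on replicate 2, a difference that was not tested.

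Opposite signs on the arrays were common, with 2110 of the 5192 genes (40.6%), and 1829 (35.2%) after loess. Several receptors of mature neutrophils had the same order of values as Cxcr2. Csf3r, the receptor for granulocyte colony-stimulating factor, stood at 0.56 and -0.58 on replicates 1 and 2. The chemokine receptor Ccr1 stood at 0.70 and -0.78, the chemerin-binding Ccrl2 at 0.67 and -0.85, and the lectin receptor Clec4e at 0.78 and -0.60. In all genes, 225 (4.33%) were at least 0.5 above 0 on replicate 1 and at least 0.5 below it on replicate 2. Loess brought Csf3r, Ccr1, Ccrl2 and Clec4e to between -0.31 and -0.03 on replicate 2. None of these 4 passed the test in limma (adjusted p from 0.957 to 0.994).

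**Figure D3:**
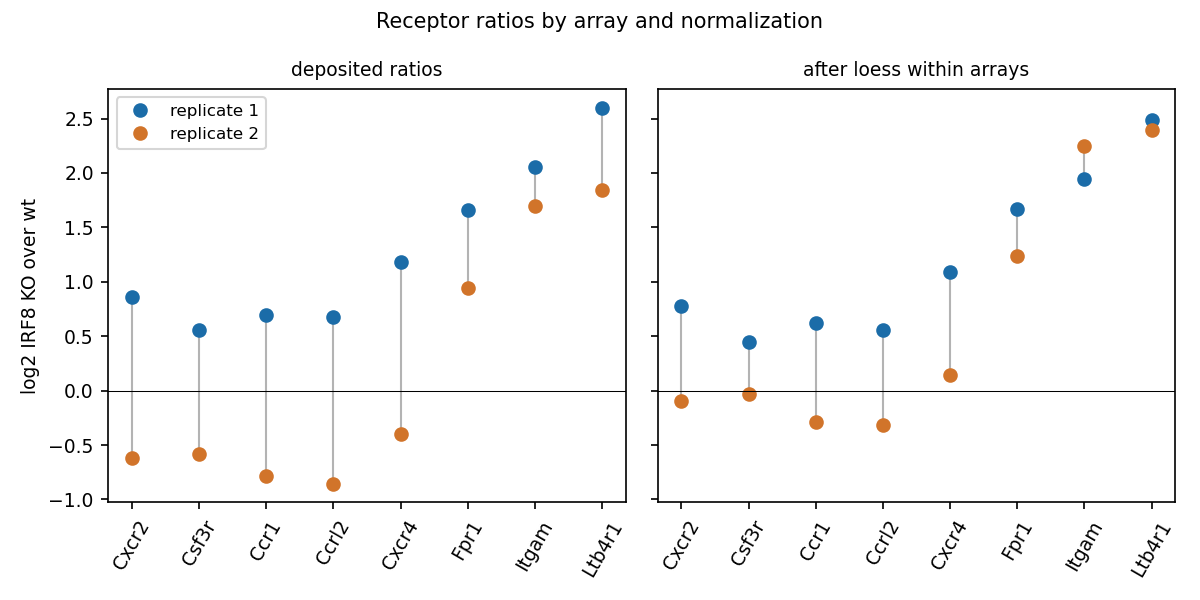
Log2 ratios of IRF8 KO over wt for 8 receptor genes on replicate 1 (blue) and replicate 2 (orange), as deposited and after loess within each array, with a grey line joining the arrays of a gene. Cxcr2, Csf3r, Ccr1, Ccrl2 and Cxcr4 have opposite signs in the deposited ratios, whereas Fpr1, Itgam and Ltb4r1 are above 0 on both arrays in both panels.

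Among 10 other chemoattractant receptors measured on both arrays, of 29 looked for, 1 rose and 0 fell, where 2.81% of all genes rose. A single call among 10 genes is too few to set the list apart from that share. Ltb4r1, the high-affinity receptor for leukotriene B4, had raw signals of 1455 in wt and 8974 in KO on replicate 1 and of 3477 and 16413 on replicate 2. Its ratios of 2.60 and 1.85 gave a mean of 2.22 ± 0.53, a 4.67-fold rise (limma adjusted p = 4.19e-06). Ffar2, a receptor for short-chain fatty acids, stood at 0.85 ± 0.89 (adjusted p = 0.242) and Hcar2, a receptor for hydroxybutyrate and niacin, at -0.83 ± 0.54 (adjusted p = 0.261). Ptafr, the receptor for platelet-activating factor, stood at 0.43 ± 0.33 (adjusted p = 0.702). The median of the 10 was 0.03, against -0.21 over all genes tested. C5ar1, the main receptor for the complement fragment C5a, was listed on replicate 2 only, at 2926 in wt and 5250 in KO with a log2 ratio of 0.45. Gpr84, a receptor for medium-chain fatty acids, was at 1.11 on the same array.

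A wider set was drawn, after the values had been seen, from the deposited annotation of G protein-coupled receptor activity. It held 42 genes on both arrays, of which 2 rose (Ltb4r1 and Fpr1), 1 fell and 39 did not pass. Over all genes tested 2.81% rose and 3.41% fell, and these few calls do not set the group apart from those shares. Fpr1 ranked 2 and Cxcr2 8 by mean ratio. The one that fell was Adgre4, an adhesion receptor of macrophages, at -2.49 ± 1.04 (limma adjusted p = 1.79e-07). The median of the 42 was -0.34. On replicate 2 alone, 6 of 69 such probes (8.7%) were at least 2-fold higher in KO, namely Fpr2, Adgrg3 (2.04), Ltb4r1, Adrb1 (1.62), Ffar2 (1.48) and Gpr84, against 3.85% of all probes on that array. Mrgpra2a, at 1.85, is also a G protein-coupled receptor but carries no such term in the deposited annotation and is not among the 69.

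**Figure D4:**
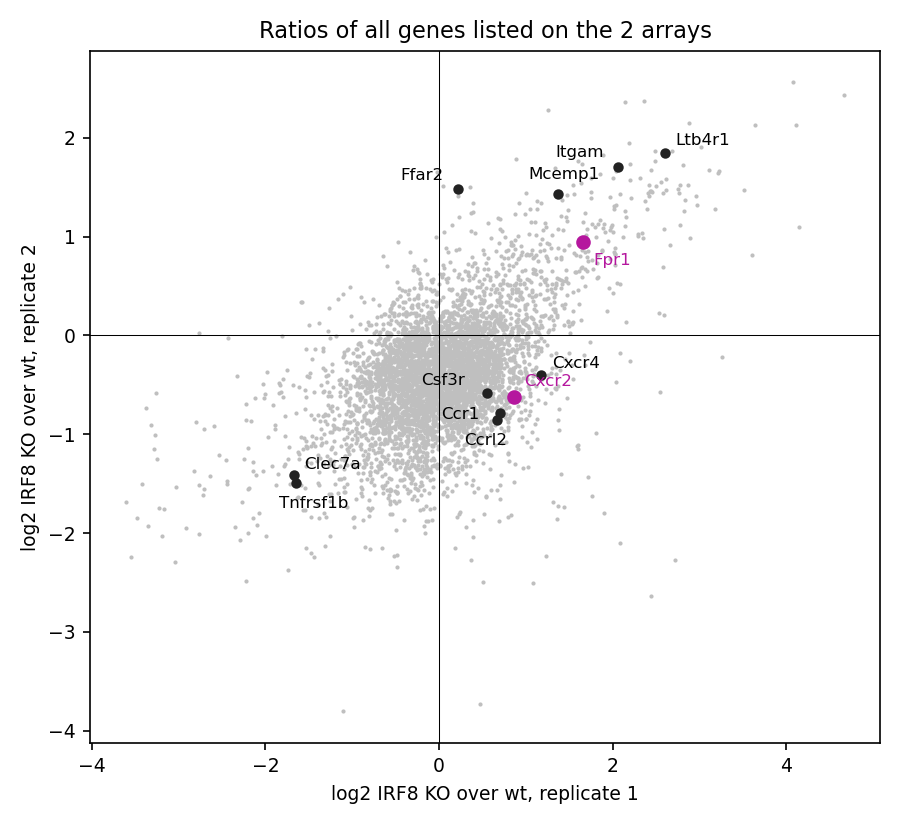
Log2 ratio of IRF8 KO over wt on replicate 1 (x axis) and replicate 2 (y axis) for 5192 genes (grey), with Fpr1 and Cxcr2 in purple and other receptors and surface proteins in black. Fpr1 (1.66 and 0.95) lies in the upper right with Itgam and Ltb4r1, and Cxcr2 (0.86 and -0.62) in the lower right with Ccr1, Ccrl2, Csf3r and Cxcr4.

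The genes whose pair of ratios lay closest to that of Fpr1 were Nqo2, a quinone reductase, Tmed3, a protein of secretory vesicles, and Per2, a circadian repressor. Their distances in the plane of the 2 log2 ratios were 0.045, 0.078 and 0.085. With only 2 arrays such likeness is weak, as 36 genes lay within 0.3 of Fpr1 and 167 within 0.3 of Cxcr2. Closest to Cxcr2 were Tti1 (0.0099), Homer3 (0.031) and A930003A15Rik (0.049).

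Of 24 other surface proteins of neutrophils on both arrays, 2 rose and 2 fell, against 2.81% and 3.41% of all genes. With loess 7 rose and 2 fell, where 381 of all 5192 genes rose and 277 fell. Itgam, the CD11b chain itself, had raw signals of 1862 in wt and 7883 in KO on replicate 1 and of 3527 and 15036 on replicate 2. Its mean ratio of 1.88 ± 0.25 was a 3.68-fold rise (limma adjusted p = 1.56e-04), so the marker that names the cells was listed in both genotypes and differed between them. Mcemp1, a membrane protein, rose by 1.40 ± 0.05 (adjusted p = 0.0115). Tnfrsf1b, a receptor for tumour necrosis factor, fell by 1.57 ± 0.11, and Clec7a, the beta-glucan receptor dectin-1, fell by 1.54 ± 0.18 (adjusted p = 0.0030 and 0.0037). Itgb2, the integrin chain that pairs with Itgam, stood at 1.07 ± 0.07 (adjusted p = 0.0941). The median of the 24 was 0.09.

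Among ligands of these receptors, 2 of 5 on both arrays rose, of 21 looked for, where 2.81% of all genes rose. This short list was chosen with earlier results of these data known, so no conclusion is drawn from the count. Anxa1, whose protein annexin A1 and its peptides act on formyl peptide receptors, rose 7.37-fold (3.64 and 2.13, mean 2.88 ± 1.07). Camp, the cathelicidin whose peptide acts on FPR2 in humans, rose by 3.55 ± 1.58, and had a signal of at least 60000, near the scanner's ceiling, which can shrink a ratio. App, the source of amyloid beta, stood at 0.48 ± 0.22 and the beta-defensin Defb1 at -0.54 ± 0.41 (adjusted p = 0.641 and 0.579). Cxcl2, a ligand of Cxcr2, was listed on replicate 2 only, at 2852 in wt and 1410 in KO with a log2 ratio of -1.41. The other genes of this list found on replicate 2 only were Ctsg, at 2.38, and Npff, at -0.65.

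Of 31 genes of Gi signalling below these receptors, 0 were called by limma, 4 had an unadjusted p under 0.05, and an ordinary t statistic called 0. With loess 4 were called, all higher in KO, where 381 of all 5192 genes were called higher and 12.7% in either direction. Mapk3, the kinase ERK1, stood at 0.98 ± 0.46, Arhgdib at 0.97 ± 0.63, Gnai3, a Gi alpha subunit, at 0.88 ± 0.47 and Gng2, a gamma subunit, at -0.78 ± 0.22 (adjusted p from 0.146 to 0.307). The median of the 31 was -0.14, near the -0.21 of all genes.

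Of 7 genes that end receptor signalling, 1 fell, where 3.41% of all genes fell. A single call among 7 genes is too few to set them apart from that share. Rgs10, which speeds the turning off of Gi proteins, stood at -2.22 and -0.69 (mean -1.46 ± 1.08, limma adjusted p = 0.0077), which missed the threshold once the arrays were centred (adjusted p = 0.135). Grk3, a kinase that desensitises receptors, stood at -0.96 ± 0.09, Rgs18 at 0.94 ± 0.36 and Rgs19 at 0.61 ± 0.76 (adjusted p = 0.162, 0.173 and 0.494). Of 4 subunits of the NADPH oxidase, which formyl peptides activate, Cybb rose by 1.49 ± 0.09 (adjusted p = 0.0057, and 0.095 with an intensity trend). Ncf4 stood at 0.94 ± 0.58 and Ncf1 at 0.75 ± 0.50 (adjusted p = 0.171 and 0.342).

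**Figure D5:**
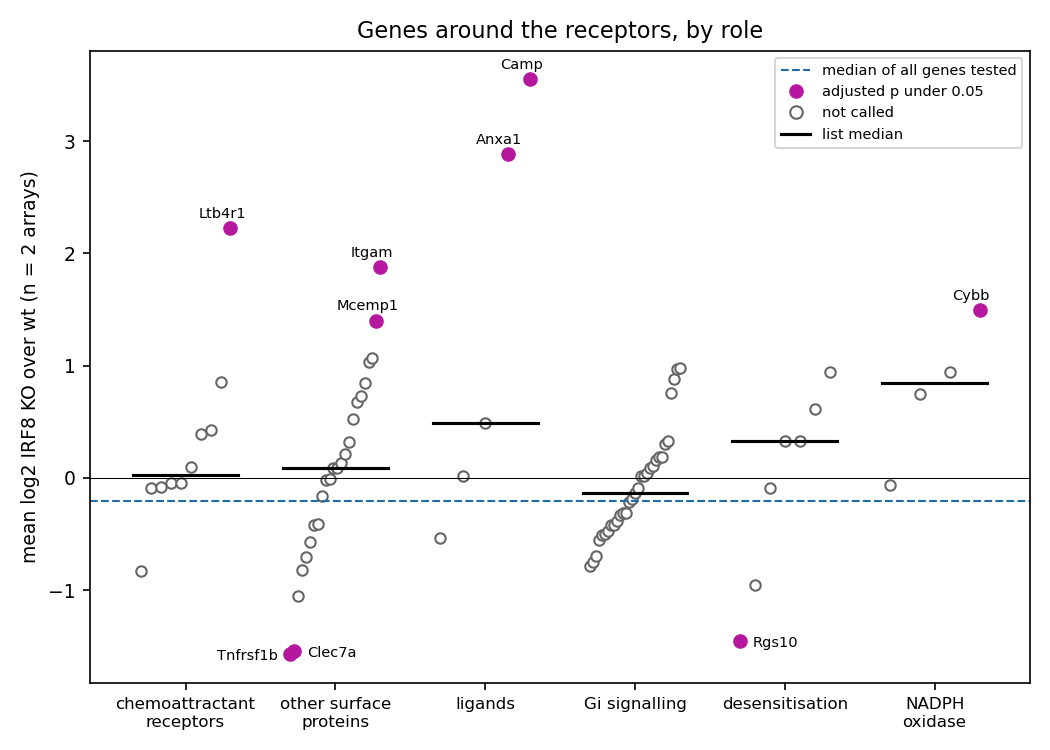
Mean log2 ratio of IRF8 KO over wt (n = 2 arrays) of genes around the receptors, grouped by role, with called genes in purple, others open, a black bar at each list's median and a dashed line at the median of all genes (-0.21). Ltb4r1, Itgam, Mcemp1, Anxa1, Camp and Cybb were called higher and Tnfrsf1b, Clec7a and Rgs10 lower.

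Markers of other stages and cell types differed on the same arrays. Of 9 neutrophil granule genes on both arrays 5 rose and 0 fell (2.81% of all genes rose). Their summed raw signal went from 225728 in wt to 585845 in KO on replicate 1 and from 471469 to 692220 on replicate 2. This sum and those below are not normalised, and on replicate 2 the deposited normalisation lowered each log2 ratio of KO over wt by 0.392. The granule sum also holds Camp, near the scanner's ceiling. The median normalised ratio of the 9 was 2.59 on replicate 1 and 0.21 on replicate 2. The granule genes had 3 calls after centring, 3 with an intensity trend and 6 with loess, all higher. Over all 5192 genes 160, 107 and 381 were called higher in these settings. Of the 9 granule genes 4 had opposite signs on the arrays. Of 8 monocyte and macrophage markers 0 rose and 7 fell (5 after centring), and their sum went from 209290 to 35546 and from 96447 to 53419. Of 5 dendritic cell markers on both arrays 4 fell, where 3.41% of all genes fell (0 were called after centring). Of those on 1 array, Cd209a stood at 1.21 and Ccr7 at -0.30 on replicate 2, and Fscn1 at -0.14 on replicate 1. Of 8 B cell markers 0 were called by limma (4 at an unadjusted p under 0.05, 1 with loess). Their median ratio differed between the arrays, at -0.11 on replicate 1 and -1.51 on replicate 2, where all genes stood at 0.03 and -0.42. The B cell sum went from 80040 to 80168 and from 232370 to 133627. Of 3 eosinophil, basophil and mast cell markers 0 were called by limma (0 at an unadjusted p under 0.05, 2 higher with loess), and their sum went from 40633 to 50655 and from 21933 to 59998. Of 2 erythroid markers, Hbb-b1 and Epor, 0 were called (2 at an unadjusted p under 0.05, 1 lower with loess), and their sum went from 45041 to 25294 and from 12117 to 6774. Of 12 T cell markers 1 was on both arrays and of 10 NK cell markers 0. In mixed cells a larger share of one cell type and more RNA per cell cannot be told apart, and the part of either in the values of Fpr1, Fpr2, Mrgpra2a and Ltb4r1 was not tested. Irf8 itself was not measured by any named probe, and the genotype labels therefore could not be checked on the targeted gene.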

How the data were processed

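Per the file headers, the deposited log2 values are ratios of Cy5 over Cy3 normalised to the array's median in the mAdb database, and the deposited intensity values are raw signals (mean intensity minus median background). Control features were left out and spots kept where both channels reached a signal of 100 and the background, per the file headers. Each deposited log2 ratio equalled the raw log2 ratio plus 0.026 (replicate 1) or 0.392 (replicate 2), and the median ratio of KO over wt was 0.0004 and -0.3052, so replicate 2 was not centred on 0. Arrays were matched to replicates by array name. A second deposited table holds the same ratios under the opposite numbering, which changes no mean or test but would place Fpr2 and Mrgpra2a on replicate 1.

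Ratios were turned to KO over wt, symbols updated by Entrez ID (8370 of 8459 found in RefSeq), and the probes of a gene averaged. The 5192 genes (or unnamed probes) on both arrays were tested against a ratio of 0 in limma 3.58.1 under R 4.3.3. P-values were two-sided and adjusted by Benjamini-Hochberg, with a threshold of 0.05. The prior degrees of freedom were infinite, so each gene had the same SD of 0.56 and a mean ratio of at least 1.18 in size was called. An exact test that flips the signs of 2 arrays cannot go below 0.5. Members and gene lists were chosen with earlier results of these data known. Named genes were all members, list genes that passed or had the largest ratios, and the 3 genes most like each member, except that some list genes are not reported here. The labels call the arrays biological replicates but name no animals or cultures, so p-values measure only the spread between these samples.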

Additional observations from a re-analysis of the deposited data

How the results depend on the processing

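Fpr1 kept its direction in every alternative and passed in every alternative with a test but the ordinary t statistic (mean 1.30, adjusted p = 0.766). Its mean became 1.46 both by centring and by loess, with adjusted p of 0.0273 and 4.43e-04, and single arrays gave 0.95 to 1.66. Cxcr2 passed in none, with -0.62 to 0.86 on single arrays. Fpr2 and Mrgpra2a moved by less than the shared SD with centring and loess. The 323 calls among all genes became 658 with loess and 0 with the ordinary t statistic (302 at an unadjusted p under 0.05). The 112 genes 2-fold higher on both arrays became 195 with loess and 135 to 396 on single arrays. The 143 lower ones became 83 after centring, 58 with loess and 281 to 643 on single arrays. Of the calls 45.2% were higher in KO, against 66.9% after centring and 57.9% with loess.

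With loess the chemoattractant receptors had 2 calls in place of 1, other surface proteins 9 in place of 4 (7 higher and 2 lower), Gi signalling 4 in place of 0, genes that end signalling 3 in place of 1 and oxidase subunits 3 in place of 1. Genes that end signalling had 0 calls after centring, and both they and the oxidase subunits had 0 with an intensity trend. Over all genes 12.7% were called with loess in place of 6.22%, and 239 of 5192 both after centring and with an intensity trend. Ligands had 1 call without probes near the scanner's ceiling, which removes Camp. The ordinary t statistic left 0 calls in each list. The causes were not tested. The test of ratios within arrays is itself the paired comparison, and with a single group of ratio arrays no further replicate block could be added. Precision is limited by 2 arrays of 1 dye orientation.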

Other observations

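Around Fpr1 and Fpr2, within 250 kb on build 37, the only other listed gene was the hyaluronan synthase Has1, at -0.21 on replicate 2. Around Cxcr2 lay Arpc2, a subunit of the actin-nucleating Arp2/3 complex (0.16 and -0.38 on replicates 1 and 2), Aamp (-0.46 and -0.98), the phosphatase Ctdsp1 (0.89 and 0.14) and the metal ion transporter Slc11a1. The Slc11a1 probe listed there on both arrays stood at -0.76 and -0.66, and another, on replicate 1 only, at -0.65. The mean of Slc11a1 over all its probes on both arrays was -0.46 (limma adjusted p = 0.671). Tns1 was listed on replicate 1 only, at 0.43. Arpc2, Aamp, Ctdsp1 and Slc11a1 did not pass the test, and Has1 and Tns1, listed on 1 array each, had no test.

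Fpr1 and Fpr2 share the deposited annotation of the KEGG pathway for Staphylococcus aureus infection. Of its 20 genes on both arrays 2 rose, Fpr1 and Itgam, and 2 fell, where 2.81% of all genes rose and 3.41% fell. Lower were H2-Ab1, a chain of the MHC class II molecule (-1.66 ± 0.26, limma adjusted p = 0.0013, and 0.053 with an intensity trend), and the adhesion molecule Icam1 (-1.27 ± 0.26, adjusted p = 0.0280, and 0.079 after centring). Cxcr2 belongs to the KEGG chemokine signalling pathway, where 2 of 70 genes rose and 4 fell, a share near the 6.22% of all genes called. With an intensity trend 0 rose and 2 fell, and with loess 6 rose and 5 fell. For the infection pathway the trend gave 2 and 0, and loess 4 and 2. Over all 5192 genes the trend called 107 higher and 132 lower, and loess 381 and 277. Both pathways were chosen after the values had been seen.

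Of 7 other surface proteins of neutrophils listed on replicate 2 only, Clec5a, a myeloid receptor that signals through DAP12, had the highest ratio. It stood at 732 in wt and 4592 in KO, with a log2 ratio of 2.26. The rest of the 7 ran from -0.05 (Tlr4) to 0.90 (Cd300lf). The granule genes Ctsg (2.38), Mmp8 (2.13) and Mmp9 (1.37) and the calcium-binding S100a9 (2.16) were likewise listed there only and had no test.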
